A study of Mus musculus with 32 samples.

Results

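Apolipoprotein C-I (*Apoc1*), 3 of its neighbours on chromosome 7 and 4 partners in lipoprotein handling were followed through mouse lung tumors in which *Lkb1* (gene symbol *Stk11*) was intact, trapped or restored. The 8 genes are *Apoc1*, *Apoe*, *Apoc2*, *Apoc4*, *Apod*, *Lpl*, *Lrp1* and *Vldlr*, out of 53558 genes in the files. *Apoc1* was chosen by its low level in non-restored compared with *KT* tumors, and the other 7 genes were chosen as its neighbours or as lipoprotein partners. The values of *Apoc1* in groups that entered that choice, and the values of all 8 genes in that comparison, are therefore given as descriptions without a test.

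Neoplastic cells were sorted by flow cytometry as cells carrying the tdTomato reporter, with dead cells and cells staining for CD45, CD31, F4/80 and Ter119 removed. All mice carried KrasLSL-G12D and Rosa26LSL-tdTomato, and tumors were started by a lentivirus with Cre. *KT* tumors (n = 4 libraries, no treatment) had wild-type *Lkb1*. By the study's methods, *KT* mice received a lower dose of this virus than Lkb1XTR/XTR mice with wild-type *Trp53*. In comparisons with *KT*, virus dose, treatment and *Lkb1* thus cannot be told apart. Non-restored tumors (n = 10) carried Lkb1XTR/XTR, a gene trap that silences *Lkb1* after Cre, and pooled 4 libraries of mice without FLPo-ERT2 that received tamoxifen with 6 libraries of mice with FLPo-ERT2 that received corn oil vehicle. Restored tumors (n = 7) carried Lkb1XTR/XTR and FLPo-ERT2 and received 4 mg doses of tamoxifen over 2 weeks, which lets FLPo-ERT2 remove the trap. The *Trp53*-deficient groups carried Trp53flox/flox in addition and were non-restored (7 libraries of 4 animals, 2 animals in each control arm) or restored (n = 4). *Trp53* wild-type tumors grew for 24 to 27 weeks and *Trp53*-deficient tumors for 16 to 19 weeks, so tumor age and *Trp53* cannot be told apart. All restored libraries in both backgrounds were from female mice, whereas 7 of 10 non-restored libraries, 2 of 4 *KT* libraries and 2 of 4 *Trp53*-deficient non-restored animals were female. The n of the non-restored and restored *Trp53* wild-type groups counts libraries, and the study names fewer mice than libraries there. Libraries held 1302482 to 5943951 expected counts, and *KT* libraries were the shallowest with a median of 1766310. Levels are given as CPM, the share of counts in a library after TMM scaling of its total, and as TPM, which is also scaled by gene length, where genes are compared with each other.

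The labels were checked on *Stk11* and on cell type markers. *Stk11* ranged from 16.6 to 27.3 CPM in *KT*, from 0 to 1.07 in non-restored and from 11.7 to 22.4 in restored libraries. In the *Trp53*-deficient groups *Stk11* ranged from 0 to 0.511 CPM in non-restored animals and from 8.38 to 14.9 in restored libraries. All 10 alveolar type II markers were measured in every group, with sums of 6031 to 110000 CPM per unit. The 9 markers of other macrophages and monocytes summed to at most 78.6 CPM, the 6 lymphocyte and neutrophil markers to at most 4.11 CPM and the 4 red blood cell markers to at most 2.598 CPM. The 5 endothelial markers summed to at most 92.4 CPM. The 6 fibroblast markers had a median sum of 48.1 CPM in *KT* tumors and of 118.6 to 171.9 CPM in the other groups. They reached 1480 CPM in *Trp53*-deficient restored library 1, and their part in the values below was not tested. The 8 measured alveolar macrophage markers summed to 15.3 to 174 CPM in 26 of the 29 units. They were at 1294 CPM in restored library 1, 559 CPM in restored library 6 and 360 CPM in non-restored library 2. The differences of *Apoc1*, *Apoe* and *Lpl* printed for *Trp53* wild-type tumors are also given without these 3 libraries.

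Apolipoproteins are the protein coats of lipoprotein particles, which carry cholesterol and triglycerides between cells. In the lung, alveolar type II cells make and recycle surfactant lipids, and alveolar macrophages take up surfactant and secrete apolipoprotein E. Apolipoproteins C-I and C-II act on lipoprotein lipase, C-II as its activator and C-I as an inhibitor, and apolipoprotein E is the ligand through which particles bind LRP1 and the VLDL receptor.

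*Apoc1* lies on the minus strand of chromosome 7 at 19689481 to 19692660 (GRCm38, the build of the files). *Apoe* (19696109 to 19699188), *Apoc4* (19678083 to 19681479) and *Apoc2* (19671579 to 19677941) flank it on the same strand. *Lrp1* is on chromosome 10 (127538161 to 127621148), *Apod* on chromosome 16 (31296192 to 31314808), *Vldlr* on chromosome 19 (27216484 to 27254231) and *Lpl* on chromosome 8 (68880491 to 68907448). All 8 are protein-coding genes. A readthrough gene, *Gm44805*, overlaps *Apoc2* and *Apoc4*, and an antisense gene, *Gm16217*, overlaps *Lrp1*. Both were listed at 0 counts in the 32 libraries. The RefSeq table of start-site windows held 6 of the 8 genes, the exceptions being *Apoc1* and *Lpl*. Below are the 250 bases before the start site of *Apoe*, the neighbour that differed together with *Apoc1*, at chr7:19699189-19699438 (minus strand), and of *Vldlr*, a receptor at a like level in the groups compared, at chr19:27216234-27216483 (plus strand), both in GRCm38.p6 and written 5′ to 3′. Capitals mark a match to the C/EBP motif.

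Apoe: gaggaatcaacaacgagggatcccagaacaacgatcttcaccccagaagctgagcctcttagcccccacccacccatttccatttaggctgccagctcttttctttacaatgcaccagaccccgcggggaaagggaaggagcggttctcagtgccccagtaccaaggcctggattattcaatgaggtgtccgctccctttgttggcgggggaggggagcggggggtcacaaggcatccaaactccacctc
Vldlr: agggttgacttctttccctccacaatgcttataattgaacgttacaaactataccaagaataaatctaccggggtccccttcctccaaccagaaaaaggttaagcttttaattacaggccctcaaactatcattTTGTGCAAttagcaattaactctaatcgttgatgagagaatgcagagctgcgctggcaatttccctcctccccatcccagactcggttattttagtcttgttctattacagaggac

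The letters of 3 motifs, of factor families that the study discusses, were searched on both strands of these windows, TTGCNNAA for C/EBP, CAAGTG for NKX2-1 and GGGCGG for SP/KLF. Of 32851 windows of the same length, 9.56% held the C/EBP letters, 11.6% the NKX2-1 letters and 32.7% the SP/KLF letters. The *Apoe* window shown held none of the 3, and the *Vldlr* window shown held 1 C/EBP match, read on the other strand, 109 to 116 bases before the start site. *Apoc4* and *Lrp1* each held 1 SP/KLF match, and the windows of *Apoc2* and *Apod* held none. A second *Vldlr* window held 1 SP/KLF match, 37 to 42 bases before its start site, and the other windows of *Apoe* held none. A match is a stretch of letters and was not tested as a binding site.

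*Apoc1* was by far the most abundant of the 8 genes. On the TPM scale its median was 1710 in *KT* tumors. It was 149 in non-restored and 388 in restored tumors with wild-type *Trp53*, and 131.5 and 339 in the matching tumors without *Trp53*. In *KT* tumors *Apoc1* ranked 64 to 146 among all genes by TPM, and in non-restored tumors 471 to 3414. *Apoe* and *Vldlr* followed, with median TPM of 32.9 and 17.0 in *KT* and 4.43 and 18.6 in non-restored tumors. *Lrp1* (2.26 in *KT*, 3.68 in non-restored) and *Lpl* (0.880 and 1.66) were low, and *Apoc2*, *Apoc4* and *Apod* had a median TPM of 0 in *KT* tumors. The ratio of *Apoc1* to *Apoe* TPM had a median of 37.2 in *KT* (range 22.6 to 66.8), 30.5 in non-restored (7.58 to 53.5, over the 9 libraries with *Apoe* above 0) and 21.7 in restored tumors (14.7 to 88.1). The 3 ranges overlapped.

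The comparison of non-restored with *KT* tumors, which chose *Apoc1*, sets tumors that grew with trapped *Lkb1* beside tumors with intact *Lkb1*, which also differ in virus dose and treatment. The 4 *KT* libraries held *Apoc1* at 372, 153, 354 and 332 CPM. The 10 non-restored libraries held 6.13 CPM at the lowest, 26.3 at the median and 43.3 at the highest. The lowest *KT* library was thus above the highest non-restored library. This and later statements on overlap between groups only describe the values. The share of all genes with such groups is not given, so nothing further is read from them. The means were 303 ± 101 CPM (SD, n = 4) and 25.3 ± 10.0 CPM (SD, n = 10), and the fitted difference on the log2 CPM scale was -3.58 (SE 0.33; -3.61 without non-restored library 2 and the other macrophage-rich libraries), so that the non-restored level was 8.37% of the *KT* mean. Both control arms were low, with 6.13, 17.4, 29.5 and 43.3 CPM after tamoxifen without FLPo-ERT2 and 19.9 to 34.4 CPM after vehicle with FLPo-ERT2. In these bulk libraries, fewer cells with a transcript and less RNA per cell cannot be told apart.

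*Apoe* stood at 30.2, 23.2, 66.9 and 22.0 CPM in the *KT* libraries. In the non-restored libraries it was 0 at the lowest, 2.88 at the median and 17.3 CPM at the highest. These groups did not overlap either, and the difference was -3.20 (SE 0.58) on the log2 scale, or -3.72 without the 3 libraries rich in macrophage markers. The highest non-restored value was that of library 2, with 360 CPM of alveolar macrophage markers, and the next highest was 6.51 CPM. Alveolar macrophage markers summed to 20.0 to 97.5 CPM in the *KT* libraries and to 16.6 to 360 CPM in the non-restored libraries. The alveolar type II marker sum was 45710 to 90240 CPM in *KT* and 6031 to 73220 CPM in non-restored libraries. The part of both marker sums in the *Apoc1* and *Apoe* values was not tested. The log2 difference was 0.92 (SE 0.41) for *Lrp1*, or 0.46 with offsets for effective gene length. It was -0.10 (SE 0.32) for *Vldlr*, and 0.16 with the tamoxifen arm alone. For *Lpl* it was 1.19 (SE 1.28), 0.44 without the 3 macrophage-rich libraries, -0.21 with the vehicle arm and -0.59 with females alone, so that its direction depended on the libraries used. For reference, 5.86% of 12636 genes tested were called in this comparison by edgeR, from which nothing is read here because the choice used it.

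**Figure D1:**
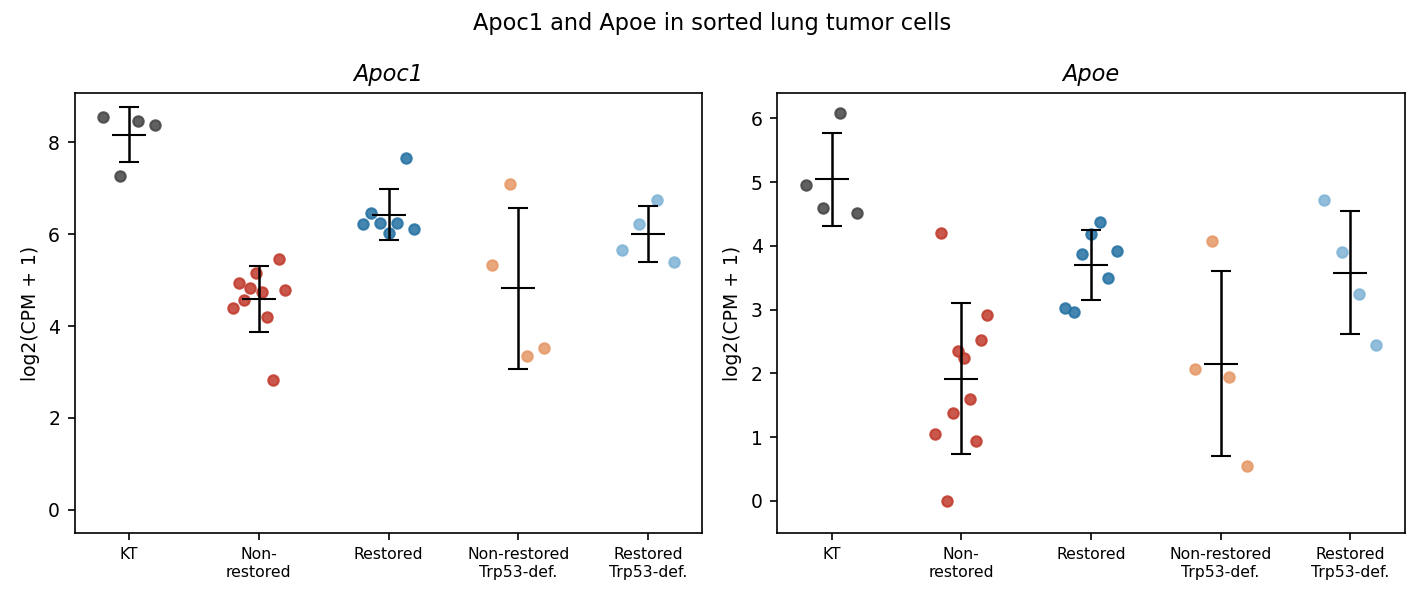
Level of *Apoc1* (left) and *Apoe* (right) in each library, or each animal for *Trp53*-deficient non-restored tumors, as log2(CPM + 1). Black marks give the mean ± SD of each group, and restored tumors sit between *KT* and non-restored tumors for both genes.

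Restored and non-restored tumors share the trapped allele and differ in its removal. They also differ in the share of females, and each control arm lacked either FLPo-ERT2 or tamoxifen. *Apoc1* in the 7 restored libraries was 63.9 CPM at the lowest, 74.3 at the median and 200 at the highest. All 7 were above the highest non-restored library (43.3 CPM). Restored library 6 was the one at 200.2 CPM, and the other 6 libraries spanned 63.9 to 87.5 CPM. The mean was 91.9 ± 48.3 CPM (SD, n = 7), or 30.4% of the *KT* mean. The difference from non-restored was 1.85 on the log2 scale (SE 0.30; 2.08 with females alone). Against *KT* it was -1.73 (SE 0.36), and -2.04 without the 3 macrophage-rich libraries, with 3 of 4 *KT* libraries above every restored library. Without the 3 libraries rich in macrophage markers, the 5 remaining restored libraries held 73.8 ± 8.91 CPM (SD) and the 9 remaining non-restored libraries 24.9 ± 10.5 CPM, a log2 difference of 1.57. Marker sums of lung epithelium also differed between these groups. The alveolar type II sum had a median of 86460 CPM in restored (42060 to 110000) and 53480 CPM in non-restored libraries (6031 to 73220), and the sum of 4 airway markers had a median of 189.8 CPM (13.6 to 432) and 73.2 CPM (16.6 to 263). Their part in the *Apoc1* and *Apoe* values was not tested.

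*Apoe* was tested in this comparison, since the choice of *Apoc1* did not use the values of *Apoe*. The test shares the non-restored libraries of that choice, and *Apoe* followed *Apoc1* over the 29 units (Pearson r = 0.805). It is therefore not independent of the choice. Restored libraries held 6.82 CPM at the lowest, 13.7 at the median and 19.8 at the highest. Non-restored library 2, at 17.3 CPM, was the only non-restored library within that range. *Apoe* was higher by 1.72 (SE 0.52) on the log2 scale and did not pass the threshold (edgeR quasi-likelihood test, unadjusted p = 0.0034, Benjamini-Hochberg adjusted p = 0.0998). Without library 2 the difference was 2.26 with an adjusted p of 0.0109 (edgeR), without the 3 libraries rich in macrophage markers 2.41 with an adjusted p of 0.0216, and with females alone 2.72 with an adjusted p of 0.00846. With the vehicle arm as the only control it was 2.24 (adjusted p = 0.0328), with the tamoxifen arm, which holds library 2, 1.22 (adjusted p = 0.437), and DESeq2 gave 1.66 (adjusted p = 0.0378). Over 31 alternatives the adjusted p ran from 0.00846 to 0.437. The 3 male non-restored libraries held 4.75, 6.51 and 17.3 CPM of *Apoe* and the 7 female ones 0 to 4.11 CPM, without overlap, a split by sex that was seen in the data and not tested. The sexes overlapped in *KT* tumors (females 23.2 and 66.9 CPM, males 30.2 and 22.0 CPM). They also overlapped in *Trp53*-deficient non-restored animals (females 3.19 and 0.455 CPM, males 15.8 and 2.83 CPM).

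Of the 4 other genes of the set that passed the filter on low counts, none was called between restored and non-restored tumors by edgeR, where 1.87% of 12636 genes were called. At an unadjusted p under 0.05 there was 1, *Apoe*, beside 15.1% of all genes, and DESeq2 called the same gene. *Lpl*, which hydrolyses triglycerides in circulating particles, was 0 CPM at the lowest, 8.33 at the median and 60.4 at the highest in restored libraries and 0, 4.91 and 38.5 CPM in non-restored libraries (log2 difference 1.42, SE 0.87, edgeR adjusted p = 0.475; 0.35 without the macrophage-rich libraries). The 3 highest values, 60.4, 53.1 and 38.5 CPM, belonged to the 3 libraries rich in macrophage markers, and without them *Lpl* reached 9.15 CPM in restored and 10.2 CPM in non-restored libraries. Over the 29 units the log2 level of *Lpl* and the log2 sum of alveolar macrophage markers had a Pearson r of 0.76, a description of libraries that share groups, while r was 0.11 for *Apoe* and 0.08 for *Apoc1*.

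**Figure D2:**
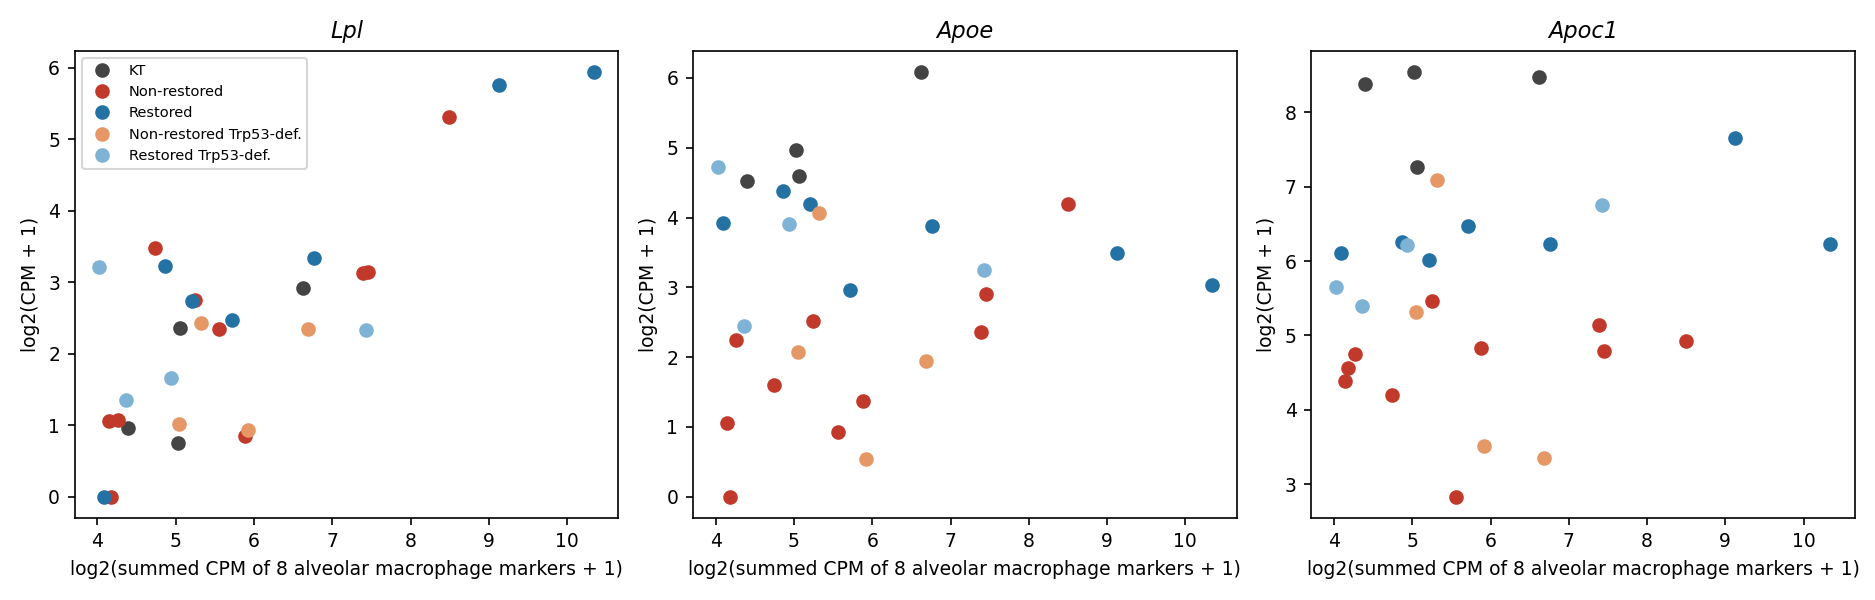
Levels of *Lpl*, *Apoe* and *Apoc1* (log2(CPM + 1)) against the summed level of 8 alveolar macrophage markers in each of the 29 units, colored by group. The 3 units farthest to the right have the 3 highest *Lpl* levels. Group medians of *Apoc1* and *Apoe* are highest in *KT*, where these markers sum to 20.0 to 97.5 CPM. Restored library 6, at 559 CPM of these markers, has more *Apoc1* (200 CPM) than *KT* library 2 (153 CPM). The part of these markers in the levels was not tested.

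The receptors were at similar levels in these groups. *Lrp1*, a large endocytic receptor, was 9.44 CPM at the lowest, 14.3 at the median and 40.2 at the highest in non-restored libraries and 11.9, 16.5 and 31.2 CPM in restored libraries (log2 difference 0.05, SE 0.31, approximate 95% interval -0.56 to 0.66). *Vldlr*, which binds particles rich in apolipoprotein E, was 50.8, 96.5 and 120 CPM in non-restored and 31.3, 112.5 and 204 CPM in restored libraries (0.13, SE 0.27, interval -0.39 to 0.66). Both sets of ranges overlapped widely, and differences within these intervals could not be detected. The *KT* libraries, at 82.5 to 118 CPM of *Vldlr*, lay within both ranges.

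Restored tumors, after 2 weeks of restoration, were also compared with *KT* tumors, which had *Lkb1* throughout and also differ in virus dose and treatment. *Apoe* was below the *KT* range in all 7 restored libraries (highest restored 19.8 CPM, lowest *KT* 22.0 CPM). The difference was -1.47 (SE 0.60) and was not called (edgeR adjusted p = 0.374), and it was -1.31 without the 3 macrophage-rich libraries. *Lrp1* was 12.3, 3.32, 8.57 and 12.9 CPM in the *KT* libraries, 0.97 (SE 0.43) below restored tumors on the log2 scale, and was not called either (edgeR adjusted p = 0.44). With offsets for effective gene length the *Lrp1* difference shrank to 0.46. Of the 4 tested genes other than *Apoc1*, edgeR called 0, beside 0.459% of 12636 genes, with 2 at an unadjusted p under 0.05 (10.55% of all genes) and 0 by DESeq2.

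**Figure D3:**
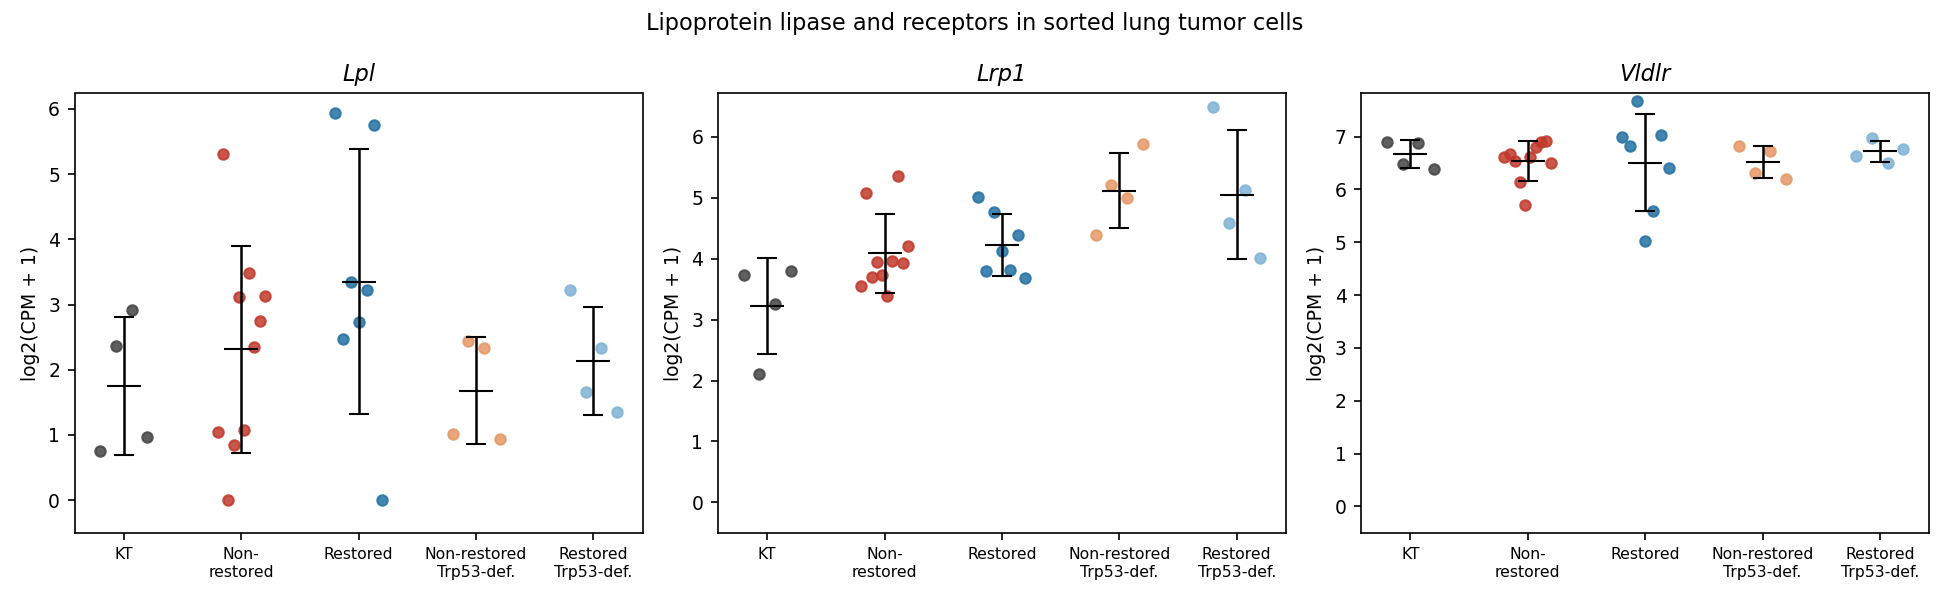
Levels of *Lpl*, *Lrp1* and *Vldlr* in each unit as log2(CPM + 1), with the mean ± SD of each group in black. *Vldlr* is level across the 5 groups, *Lpl* is spread within groups, and *Lrp1* is lowest in *KT* tumors.

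Restoration in *Trp53*-deficient tumors used libraries that had no part in the choice, so *Apoc1* was tested there. The 4 non-restored animals held 38.9, 135, 9.20 and 10.5 CPM of *Apoc1*. The 4 restored libraries held 49.2, 73.7, 107 and 41.1 CPM. Every restored library was above 3 of the 4 non-restored animals, and the fourth, animal 2, was above all restored libraries. The difference was 0.47 (SE 0.84) on the log2 scale with an adjusted p of 0.929 (edgeR), and its approximate 95% interval of -1.17 to 2.11 includes the difference of 1.85 seen with wild-type *Trp53*. Without animal 2 the difference was 1.79 (adjusted p = 0.471). *Apoe* was 3.19, 15.8, 2.83 and 0.455 CPM in the non-restored animals and 25.4, 14.04, 8.49 and 4.44 CPM in the restored libraries, with a difference of 1.19 (SE 0.86, edgeR adjusted p = 0.812). Among the non-restored animals, animal 2, a male, was highest in both genes. With females alone the difference was 1.41 for *Apoc1* (edgeR adjusted p = 0.685) and 2.63 for *Apoe* (edgeR adjusted p = 0.628). The alveolar type II marker sum was 8413 to 36510 CPM in the non-restored animals and 36560 to 55270 CPM in the restored libraries. Its part in these values was not tested. Of the 5 tested genes edgeR called 0, beside 0% of 12516 genes (748 genes had an unadjusted p under 0.05 and DESeq2 called 23). None of the 5 had an unadjusted p under 0.05 and DESeq2 called none of them.

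Libraries of 1 animal also differed. The 3 libraries of non-restored animal 1 held *Apoc1* at 10.2, 16.9 and 92.2 CPM, whereas their *Apoe* was 3.62, 2.73 and 3.07 CPM. The 2 libraries of animal 2 held 143 and 127 CPM of *Apoc1* and 10.8 and 22.2 CPM of *Apoe*. *Vldlr* in the same 5 libraries spanned 70.0 to 128 CPM. In animal 1 the library highest in *Apoc1* was thus not the highest in *Apoe*. Both animals belonged to the vehicle arm, and the 2 animals of the tamoxifen arm held 9.20 and 10.5 CPM of *Apoc1*.

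The difference of the restoration effect between *Trp53* backgrounds was -1.40 (SE 0.75) for *Apoc1*, given as a description, and -0.54 (SE 1.01) for *Apoe* (edgeR adjusted p = 1). The control arm moved it. With vehicle controls in both backgrounds the value for *Apoc1* was -2.19 (SE 0.57), and with tamoxifen controls it was 0.85 (SE 0.78). Of *Apoe*, *Lpl*, *Lrp1* and *Vldlr*, edgeR called 0, beside 0% of 13706 genes. Of all genes 422, and none of the named ones, had an unadjusted p under 0.05, and DESeq2 called 0 genes.

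Levels were then compared between *Trp53* backgrounds, which also differ in tumor age. Among restored tumors *Apoc1* was 67.7 ± 29.5 CPM (SD, n = 4) with deficient and 91.9 ± 48.3 CPM (n = 7) with wild-type *Trp53*, a difference of -0.44 (SE 0.55) that was not called (edgeR adjusted p = 0.723). *Lrp1* was 89.1, 23.0, 34.0 and 15.1 CPM in the *Trp53*-deficient restored libraries, higher by 1.12 (SE 0.43) with an adjusted p of 0.228 (edgeR). The library at 89.1 CPM also had the highest sum of 6 fibroblast markers of all units, 1480 CPM against at most 412 CPM elsewhere, and the part of these markers in its *Lrp1* value was not tested. Without that library the *Lrp1* difference was 0.36 (edgeR adjusted p = 0.671), and with all libraries and offsets for effective gene length it was 0.60 (edgeR adjusted p = 0.527). Of *Apoc1*, *Apoe*, *Lpl*, *Lrp1* and *Vldlr*, edgeR called 0, beside 0.372% of 13706 genes. By edgeR 1 of them, *Lrp1*, had an unadjusted p under 0.05, beside 15.5% of all genes, and DESeq2 called 0 of them.

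Among non-restored tumors *Lrp1* was 19.9, 36.0, 30.9 and 57.8 CPM in the *Trp53*-deficient animals, higher by 1.02 (SE 0.40) than with wild-type *Trp53* and with an adjusted p of 0.193 (edgeR). Without non-restored library 8 the difference was 1.24 (adjusted p = 0.0368). *Apoe* differed by 0.58 (SE 0.71, edgeR adjusted p = 0.694). *Apoc1* differed by 0.96 (SE 0.50), and by -1.30 within the tamoxifen arm and 1.74 within the vehicle arm, so its direction differed between the arms. Of *Apoe*, *Lpl*, *Lrp1* and *Vldlr*, edgeR called 0, beside 0.584% of 13706 genes. By edgeR 1 of them, *Lrp1*, had an unadjusted p under 0.05, beside 17.7% of all genes, and DESeq2 called 0 of them. The alveolar type II marker sum was 8413 to 36510 CPM in these animals against 6031 to 73220 CPM with wild-type *Trp53*, and its part in these values was not tested.

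**Figure D4:**
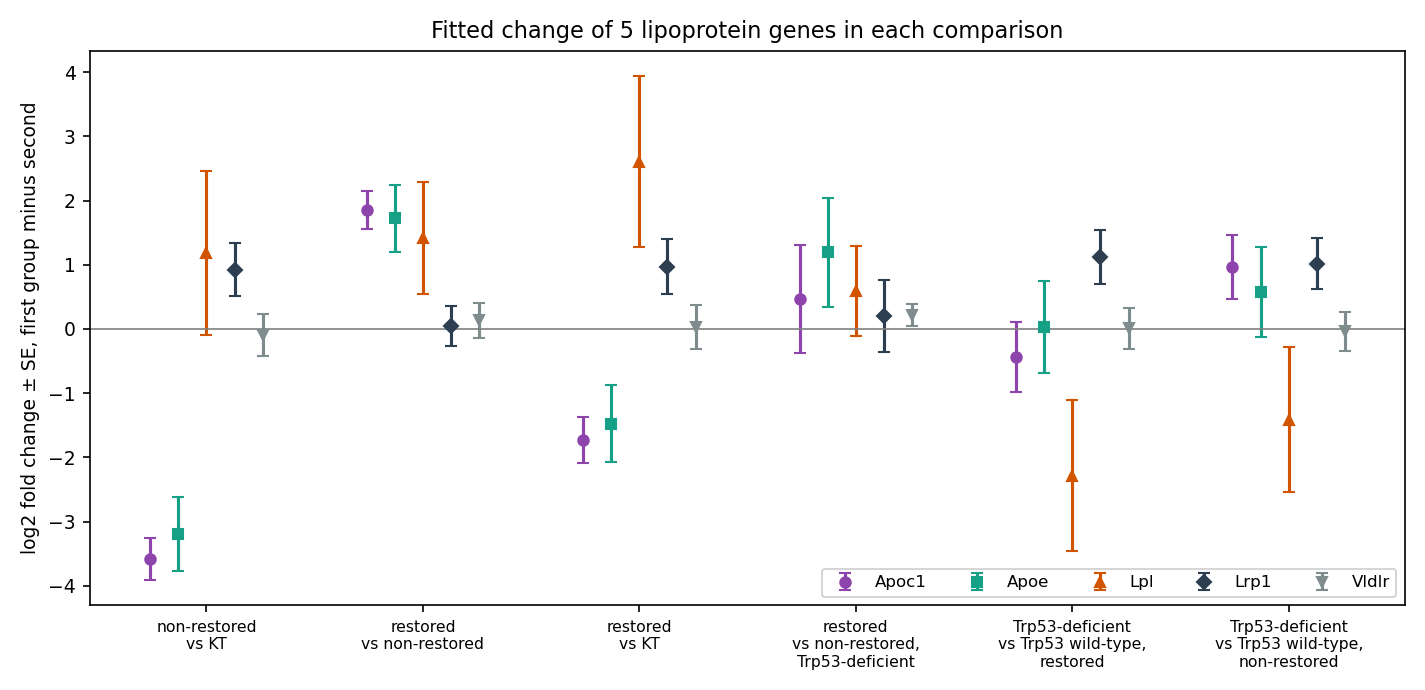
Fitted log2 fold change ± SE of *Apoc1*, *Apoe*, *Lpl*, *Lrp1* and *Vldlr* in 6 comparisons, with the first group named minus the second. *Apoc1* and *Apoe* lie close to each other in the 3 comparisons of *Trp53* wild-type tumors, which share libraries, and *Vldlr* stays near 0 in all 6.

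Ordered by median CPM, the groups for *Apoc1* ran from *KT* (343) through restored (74.3), *Trp53*-deficient restored (61.4) and non-restored (26.3) to *Trp53*-deficient non-restored (24.7). Neighbours in that order overlapped in every case, *KT* and restored by 1 library on each side. For *Apoe* the order was *KT* (26.7), restored (13.7), *Trp53*-deficient restored (11.3), *Trp53*-deficient non-restored (3.01) and non-restored (2.88), and only *KT* and restored did not overlap. For *Lrp1* the 2 *Trp53*-deficient groups came first (33.5 and 28.5 CPM) and *KT* last (10.5 CPM).

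The 3 remaining genes were near the floor of 3 counts per library, which corresponds to 0.505 to 2.30 CPM. *Apoc4*, a minor apolipoprotein of the cluster, had 10 counts in all 32 libraries together and none above the floor. *Apod*, a lipocalin that is not part of the cluster, had 83 counts, with 7 libraries above the floor. *Apoc2* had 108 counts, with 19 libraries at 0. In the *Trp53*-deficient non-restored animals *Apoc2* was above the floor in 4 of 4, at 9 to 19 counts (1.15 to 5.00 CPM), against 3 of 10 non-restored, 1 of 7 restored, 0 of 4 *KT* and 1 of 4 *Trp53*-deficient restored units. It passed the filter on low counts in the fit of both *Trp53* backgrounds, where the group with the higher counts brought it in. No test of it is therefore given, and the genes named with the call counts of that fit leave it out.

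Apart from *Apoe*, no tested gene within 500 kb of *Apoc1* was lower in non-restored tumors to a similar degree. Of 66 genes other than the 4 that start within 500 kb of *Apoc1*, 28 passed the filter in *Trp53* wild-type tumors. Their log2 differences between non-restored and *KT* tumors ran from -0.37 to 1.75 with a median of 0.10, beside a median of 0.03 over all genes tested. *Tomm40* and *Clptm1*, the nearest tested genes on either side of the cluster, were at 0.09 and 0.14. *Igsf23*, 258 kb away, was the only one of the 28 called in that comparison, beside 5.86% of all genes, with 14.4 to 66.3 CPM in non-restored and 4.14 to 14.4 CPM in *KT* libraries, the opposite direction to *Apoc1*. Between restored and non-restored tumors these 28 genes ran from -0.52 to 0.81 and edgeR called 0, beside 1.87% of all genes, with 1 at an unadjusted p under 0.05 beside 15.1%.

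**Figure D5:**
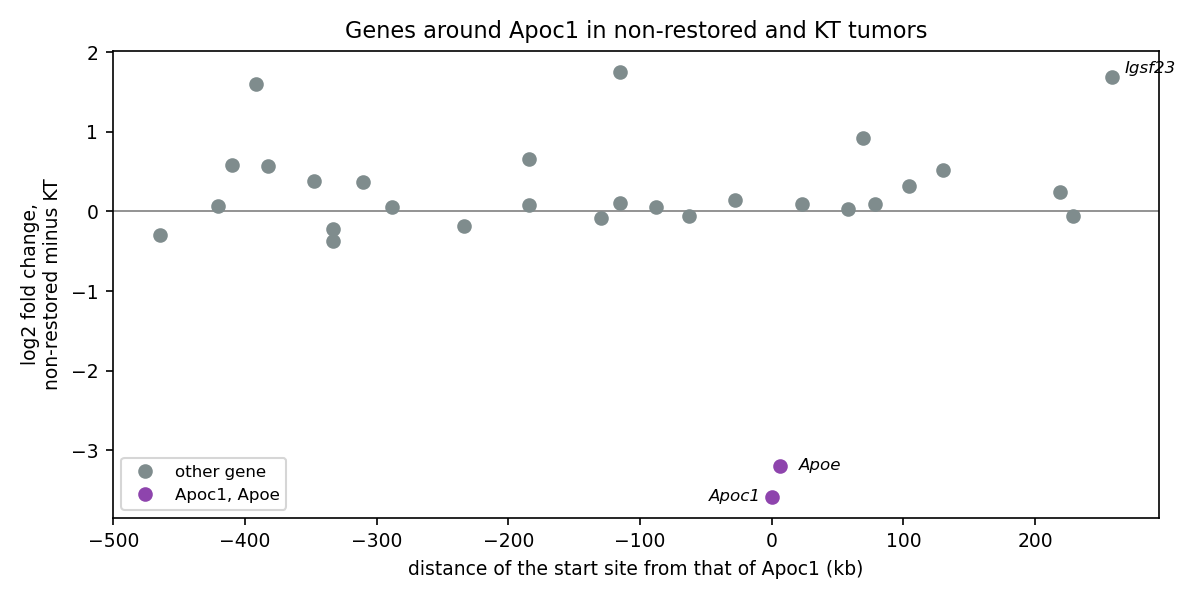
Log2 fold change between non-restored and *KT* tumors of the 30 tested genes that start within 500 kb of *Apoc1*, against the distance of their start site from that of *Apoc1* in kb. *Apoc1* and *Apoe* lie below -3, and the other 28 genes lie between -0.37 and 1.75.

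The wider lipoprotein pathway was described with 58 further genes in 4 lists, other apolipoproteins, other lipoprotein receptors, lipases and lipid transfer proteins, and cholesterol efflux and LXR genes. Between restored and non-restored tumors 34 of the 58 were tested. edgeR called 1 lower and 0 higher, beside 1.87% of all genes, and 6 had an unadjusted p under 0.05, beside 15.1% of all genes. Their median log2 difference was 0.08 beside -0.01 over all genes tested. The gene that fell was *Angptl4*, which encodes a secreted inhibitor of lipoprotein lipase. It was 3.42 CPM at the lowest, 20.6 at the median and 71.0 at the highest in non-restored libraries and 3.44, 6.50 and 14.6 CPM in restored libraries, a difference of -1.92 (SE 0.46, edgeR adjusted p = 0.0317). The groups overlapped at their low ends, and the call was lost in 13 of 31 alternatives, among them the one without the 3 libraries rich in macrophage markers (-1.85, adjusted p = 0.156). Between non-restored and *KT* tumors, the comparison that chose *Apoc1* and in which 5.86% of all genes were called, 1 of 34 genes was called higher (*Angptl4*, 2.74 to 7.63 CPM in *KT* libraries, called in 20 of 31 alternatives) and 1 lower (*Sel1l*, a partner of lipoprotein lipase maturation, 173 to 279 CPM in non-restored and 322 to 437 CPM in *KT* libraries).

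By list, 3 of 15 other apolipoproteins, 13 of 16 other receptors, 7 of 14 lipases and transfer proteins and 11 of 13 efflux and LXR genes were tested between restored and non-restored tumors. Their median log2 differences were 0.29, -0.02, 0.03 and 0.21. Of the 11 efflux and LXR genes, 10 had a difference above 0, and edgeR called 0 of them, with 1 at an unadjusted p under 0.05. Between restored and *KT* tumors edgeR called 0 of the 34 genes, beside 0.459% of all genes, with 6 at an unadjusted p under 0.05 beside 10.55%. In the *Trp53*-deficient tumors it called 0 of 33, beside 0% of all genes, with 2 at an unadjusted p under 0.05 beside 5.98%.

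Among the genes whose log2 CPM followed that of *Apoc1* most closely over the 29 units, of 12025 genes tested in every fit, were *Rbp4* (Pearson r = 0.87), *Fmo4* (0.85), *Mgst1* (0.84) and *Pcbd1* (0.84). *Apoe* came 23rd with r = 0.81, and *Lpl* (0.12), *Vldlr* (0.07) and *Lrp1* (-0.33) were far from it. These values describe units that share groups, and *KT* libraries weigh on them. Over the 25 units without *KT*, r was 0.80 for *Rbp4*, 0.85 for *Fmo4*, 0.75 for *Pcbd1*, 0.74 for *Mgst1* and 0.72 for *Apoe*. *Rbp4*, which encodes a retinol carrier, and *Fmo4*, a flavin-containing monooxygenase, then ranked 3 and 1, while *Pcbd1* and *Mgst1* fell to ranks 18 and 22. The log2 sum of alveolar type II markers had r = 0.59 with *Apoc1* and 0.52 with *Apoe* over the 29 units. The lowest *Apoc1* of all units, 6.13 CPM in non-restored library 8, came with the lowest alveolar type II sum, 6031 CPM. The highest *Apoc1*, 372 CPM in *KT* library 1, came with 45710 CPM, the lowest sum in *KT*. The highest sum, 110000 CPM in restored library 3, came with 74.3 CPM of *Apoc1*. The part of these markers in the *Apoc1* and *Apoe* values was not tested.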

How the data were processed

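Neoplastic cells of 32 libraries were sequenced after ribosomal RNA depletion from nanogram amounts of RNA. Per the submitters' processing notes and the study's methods, the authors mapped reads (mm10) by STAR 2.6.1d and estimated abundances per gene with RSEM 1.2.30. The deposited expected counts are RSEM's estimated counts and are not normalized. The deposited TPM values were scaled by the authors for effective gene length and library size, and the effective lengths in the same files were used for 1 alternative. Tables of the authors' normalized counts and DESeq2 1.26.0 comparisons (fold changes and p-values) were not used here.

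Expected counts were rounded, libraries of 1 *Trp53*-deficient non-restored animal were summed (their TPM averaged), low genes were removed by filterByExpr, and TMM factors were applied. edgeR 4.0.16 quasi-likelihood F tests (R 4.3.3, limma 3.58.1) were adjusted by Benjamini-Hochberg over every gene in the fit (threshold 0.05). There were 3 fits, of 21 *Trp53* wild-type libraries, of 8 *Trp53*-deficient units and of 25 units without *KT*. CPM were scaled over all units, with a prior count of 2 for logs. The tests were checked on simulated data. Approximate 95% intervals are normal intervals of the fitted log2 differences.

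The 8 genes, the gene lists and the markers were chosen with earlier results of these data known. Named genes are the 8 genes, listed pathway genes and genes within 500 kb of *Apoc1* with an adjusted p under 0.05, the 5 genes most like *Apoc1* (of which 1 is not reported here), and *Stk11*. Depth was 1302482 to 5943951 counts per library, and floors of 3 counts cover counting error only. The labels do not say which of the other libraries share a mouse. For *Trp53* wild-type tumors the study's legend names 3 mice in each non-restored arm and 4 restored mice, beside 10 non-restored and 7 restored libraries. On that count some libraries share a mouse. The p-values measure the spread between libraries, which is then partly technical, and may be too small. Leaving out 1 unit need not leave out a whole mouse. The labels name no sequencing batch. Coordinates are from GENCODE M21 (GRCm38), and start-site windows from RefSeq (GRCm38.p6). Alternatives were DESeq2 1.42.0, other size factors, filters and length offsets, single control arms, females alone, a replicate block, and leaving out each unit.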

Additional observations from a re-analysis of the deposited data

Results flagged for a closer look

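In 3 of 25 groups checked (5 genes in 5 groups), 1 sample stood apart from the rest of its group by Dixon's criterion at the 95% level on the log2 CPM scale, which chance meets in about 1 of 20 groups, and all 3 concerned *Apoc1*. Of these 3, only restored library 6 also met the criterion on the plain CPM scale. *KT* library 2 was low at 153.3 CPM, with 331.6 CPM in the next lowest *KT* library. Non-restored library 8 was low at 6.128 CPM, with 17.37 CPM in the next lowest, and it had the lowest alveolar type II marker sum of all units (6031 CPM). Restored library 6 was high at 200.2 CPM, with 87.48 CPM in the next highest, and it was also rich in alveolar macrophage markers (559.2 CPM), although restored library 1, richer still at 1294 CPM, held *Apoc1* at 74.0 CPM. The part of these markers in the *Apoc1* values was not tested.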

How the results depend on the processing

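The count of tested genes called kept its value of 0 between restored and *KT* tumors, in *Trp53*-deficient tumors, in the difference between *Trp53* backgrounds and between *Trp53* backgrounds among restored tumors, under every alternative run. Between restored and non-restored tumors it became 1 (*Apoe*) with DESeq2, with females alone, with the vehicle arm, without non-restored library 2 and, in an alternative chosen after seeing the data, without the 3 libraries above 300 CPM of macrophage markers (leave-one-out range 0 to 1). Between *Trp53* backgrounds among non-restored tumors it became 1 (*Lrp1*) only without non-restored library 8 (range 0 to 1). The log2 differences of *Apoc1* kept their direction, leaving out 1 unit at a time, at -3.80 to -3.46 (non-restored against *KT*), 1.54 to 1.99 (restored against non-restored) and -2.04 to -1.60 (restored against *KT*). With the replicate number as a block, which is only a name here (6 of 15 same-numbered pairs had correlated deviations over 0.1, and 2 of 21 libraries correlated best with their own number), they were -3.70, 1.79 and -1.91, and the block changed no call. Among the tested differences printed above, those that changed direction, none of them called, were *Lrp1* between restored and non-restored tumors (-0.464 with the tamoxifen arm, -0.031 without the macrophage-rich libraries, -0.091 to 0.287 leaving out 1 unit, below 0 without restored library 1 or 3 or non-restored library 1, 3 or 6) and *Vldlr* there (-0.126 with the tamoxifen arm, -0.12 to 0.294, below 0 without restored library 3). *Apoe* changed direction in the difference between *Trp53* backgrounds (1.598 with the tamoxifen arms, -1.078 to 0.752) and among non-restored tumors (-1.573 with the tamoxifen arms, -0.724 to 1.113), in both cases also without *Trp53*-deficient non-restored animal 2. Uncalled differences shown in the plot alone also changed direction under some alternatives, among them *Vldlr* between restored and *KT* tumors (-0.014 with the block) and *Lrp1* in *Trp53*-deficient tumors (-0.228 with length offsets). The cause of these changes was not tested. Over all genes, DESeq2 called 467 rather than 236 between restored and non-restored tumors, 168 rather than 58 between restored and *KT* tumors, 23 rather than 0 in *Trp53*-deficient tumors, and 216 rather than 51 (restored) and 412 rather than 80 (non-restored) between *Trp53* backgrounds. The 4 *KT* libraries, the shallowest, and the 4 against 4 *Trp53*-deficient units limit what can be detected.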
